A study of Mus musculus with 9 samples.

Results

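Expression of 10 stromal chemokine and interleukin 6 (Il6)-family genes was followed through the cells of the mouse knee, in the steady state and 6 days after joint surface injury. The genes were *Ccl2*, *Ccl7*, *Ccl11*, *Cxcl1*, *Cxcl5*, *Cxcl12*, *Cxcl13*, *Cxcl14*, *Il6* and *Lif*, taken by symbol from the 54534 genes listed in the deposited count matrices. They were selected on their measured levels in this series across cell types, lineages and injury states, and the choice names the loss of *Cxcl13* after injury. *Cxcl13* in the comparisons with injury, and between lineages after injury, is therefore given as a description without a test. Where any of the 10 genes is tested below, the test uses the values that chose it. Adjusted p values of these genes thus describe differences and are no independent support for them.

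All animals were *Gdf5-Cre;Tom;Pdgfrα-H2BGFP* mice, 11 to 12 weeks old. In this model, Cre under *Gdf5* regulatory sequence labels descendants of the embryonic joint interzone with tdTomato (Tom), and green fluorescent protein (GFP) in the nucleus marks cells that use the *Pdgfrα* promoter, a pan-fibroblast marker. Cells were released from the knee with collagenase and sorted into Tom+ *Gdf5*-lineage cells and Tom-GFP+ cells of other origin. The 4 groups were steady-state Tom+ (2 libraries from 2 mice), steady-state Tom-GFP+ (1 library, from 1 of those mice), injured-state Tom+ (4 libraries from 4 mice) and injured-state Tom-GFP+ (2 libraries, from 2 of those mice). Injury was a medial parapatellar arthrotomy with a full-thickness scratch of the cartilage of the trochlear groove, and no sham-operated group is among the 9 libraries, so effects of opening the joint and of the cartilage wound cannot be told apart. Cells that neither descend from the interzone nor use *Pdgfrα* were largely left out by the sort.

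Chemokines are small secreted proteins that guide leukocytes and other cells through G protein-coupled receptors. *Ccl2* and *Ccl7* encode ligands of Ccr2, which draw monocytes, and *Ccl11* encodes eotaxin, a ligand of Ccr3 on eosinophils. *Cxcl1* and *Cxcl5* encode neutrophil attractants that act on Cxcr2. *Cxcl12* encodes the ligand of Cxcr4 that retains haematopoietic cells in their niches, *Cxcl13* encodes the B-cell attractant that acts on Cxcr5, and *Cxcl14* encodes a chemokine made in many resting epithelia and stromata. *Il6* and *Lif* encode cytokines that signal through the shared receptor chain gp130 (*Il6st*) to Stat3, and in inflamed joints synovial fibroblasts are a known source of Il6.

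On the GRCm38 assembly, with GENCODE vM21 gene models, 4 of the genes lie on chromosome 5: *Il6* (chr5:30013114-30019981), *Cxcl5* (chr5:90759360-90761624), *Cxcl1* (chr5:90891241-90893115) and *Cxcl13* (chr5:95956951-95961068). *Ccl2* (chr11:82035571-82037453), *Ccl7* (chr11:82045712-82047525) and *Ccl11* (chr11:82057823-82062955) are neighbours on chromosome 11, which also carries *Lif* (chr11:4257557-4272514). *Cxcl12* is at chr6:117168535-117181367, and *Cxcl14*, the only one of the 10 on the minus strand, is at chr13:56288643-56296551.

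Promoters of 3 genes are shown because *Cxcl1* and *Il6* are textbook targets of NF-κB, and *Cxcl13* is the gene whose RNA was lost. RefSeq promoter sequences of GRCm38.p6 were held for 6 of the 10 genes, without *Ccl2*, *Ccl7*, *Ccl11* and *Cxcl5*. The 150 bases before each transcript start are printed 5′ to 3′ on the plus strand, with capitals marking a κB motif spelled GGGA, any base and TTTCC without a gap, searched on both strands.
Cxcl1, chr5:90891095-90891244: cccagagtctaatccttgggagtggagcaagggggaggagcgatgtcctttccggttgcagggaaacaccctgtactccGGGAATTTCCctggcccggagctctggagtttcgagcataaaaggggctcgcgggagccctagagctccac
Il6, chr5:30012964-30013113: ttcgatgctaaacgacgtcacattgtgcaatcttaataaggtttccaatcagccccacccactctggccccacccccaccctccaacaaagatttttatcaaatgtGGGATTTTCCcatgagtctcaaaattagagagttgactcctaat
Cxcl13, chr5:95956789-95956938: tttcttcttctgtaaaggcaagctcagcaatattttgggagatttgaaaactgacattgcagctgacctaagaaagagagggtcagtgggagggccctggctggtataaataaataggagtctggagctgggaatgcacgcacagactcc
The motif lay at -71 to -62 of *Cxcl1* and at -44 to -35 of *Il6*, and its letters are not in the *Cxcl13* window. Among 32851 promoter windows of 300 bases, 135 (0.411%) held the motif, against 2 of the 6 windows of these genes. An AP-1 motif spelled TGANTCA, also searched on both strands, was in 2565 windows (7.81%), with those of *Il6* and *Lif* among them. A match describes the letters and is not evidence of binding.

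Of 5161 barcodes, 4788 cells passed filters on genes, unique molecular identifiers (UMIs) and mitochondrial share, with 277 to 826 cells in a library. Steady-state libraries had a median of 8050.5 to 8647 UMIs per cell and injured-state libraries 12223 to 18567, so levels are given as CPM, the UMIs of a gene per 1000000 UMIs of that cell class in that library, not divided by gene length. RNA of tdTomato was at 328 to 706 CPM in Tom+ libraries and at 2.71 to 7.50 CPM in Tom-GFP+ libraries, as labelled. At most 2 barcodes were shared by any pair of libraries. Tom+ injured replicate 1 stood apart: it was the deepest, its gene list had the format of the 3 steady-state files while the other 5 injured libraries shared another format, and 60.7% of its sublining fibroblasts were in the injury-induced gate described below, against 17.7% to 31.4% in the other injured libraries. Format and injury state thus nearly coincide, and what the format marks is not given in the sources used here. In Tom-GFP+ injured replicate 2, 277 of 424 barcodes passed the filters.

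Cells were assigned to classes by how many markers of a class had a UMI, and none of the 10 genes was a marker. The classes were sublining fibroblasts (2841 cells, markers *Thy1*, *Cd34*, *Clec3b*, *Mfap5*, *Dpt* and *Ly6a*), lining fibroblasts or fibroblast-like synoviocytes (748 cells, *Prg4*, *Clic5*, *Itga6*, *Tspan15*, *Htra4* and *Col22a1*), and smaller classes of tenocyte (192), osteoblast (186), chondrocyte (152), immune (110), mural (91), adipogenic (77), injury-induced (31) and endothelial (22) gated cells, with 338 cells in none. In sublining sums, *Ptprc* had no UMI in any library and *Cdh5* at most 1 UMI, while summed immune markers were at 3.24 to 23.6 CPM in steady-state Tom+ libraries and 5.70 to 42.5 CPM in injured-state ones. Only 2 lining cells were found in the steady-state Tom-GFP+ library, so lining cells were compared within Tom+ libraries.

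In the steady state, sublining fibroblasts had the highest mean level among the gated classes of *Ccl2*, *Ccl7*, *Ccl11*, *Cxcl12* and *Cxcl13*, over classes with at least 10 cells in a library. *Ccl2* averaged 155 CPM in sublining fibroblasts, with 3 libraries between 55.7 and 309 CPM, against means of at most 20.1 CPM in the other gated classes. Outside sublining, mural and adipogenic-gated cells, *Ccl11* was at most at 9.54 CPM (3 UMIs) in any gated class of any library. *Cxcl14* had another pattern, with high values in some skeletal classes. In steady-state osteoblast-gated cells *Cxcl14* was at 571, 1172 and 821 CPM in the 3 libraries, and in Tom-GFP+ chondrocyte-gated cells at 1309 CPM in the steady state and 1533 CPM after injury, against 70.5 to 158 CPM in the 5 Tom+ chondrocyte sums.

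After injury, several other classes carried the Ccr2 ligand genes *Ccl2* or *Ccl7*. Mural-gated cells, named for the pericytes and smooth muscle of vessel walls, had *Ccl2* at 660 and 538 CPM in Tom+ replicates 1 and 2 (40 and 21 cells), against 20.1 CPM in 10 such cells of a steady-state library. The same mural sums held *Ccl11* at 232 and 254 CPM and *Il6* at 137 and 184 CPM. Tenocyte-gated cells had 91.8 to 384 CPM of *Ccl2* and 106 to 415 CPM of *Ccl7* in 4 injured libraries, against at most 35.1 CPM of *Ccl2* and 6.27 CPM of *Ccl7* in 2 steady-state ones. Immune-gated cells, marked by genes such as *Ptprc* and *Lyz2*, held *Ccl2* at 374 and 642 CPM in Tom+ replicates 3 and 4, and at 0 CPM in 12 cells of Tom-GFP+ replicate 2. Chondrocyte- and osteoblast-gated cells stayed at or below 44.2 CPM of *Ccl2* in every library. Most of these sums come from 10 to 66 cells of 1 library each, so they have no test.

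*Cxcl12* was at its highest in adipogenic-gated cells, a class marked by *Adipoq*, *Lepr*, *Lpl*, *Plin1*, *Plin4* and *Cebpa*. Its level there was 4080 CPM in the 37 such cells of Tom+ injured replicate 4, against 948 CPM in the sublining fibroblasts of the same library. The other libraries held 0 to 8 adipogenic-gated cells each, and in 7 of them *Cxcl12* was between 2698 and 35371 CPM.

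**Figure D1:**
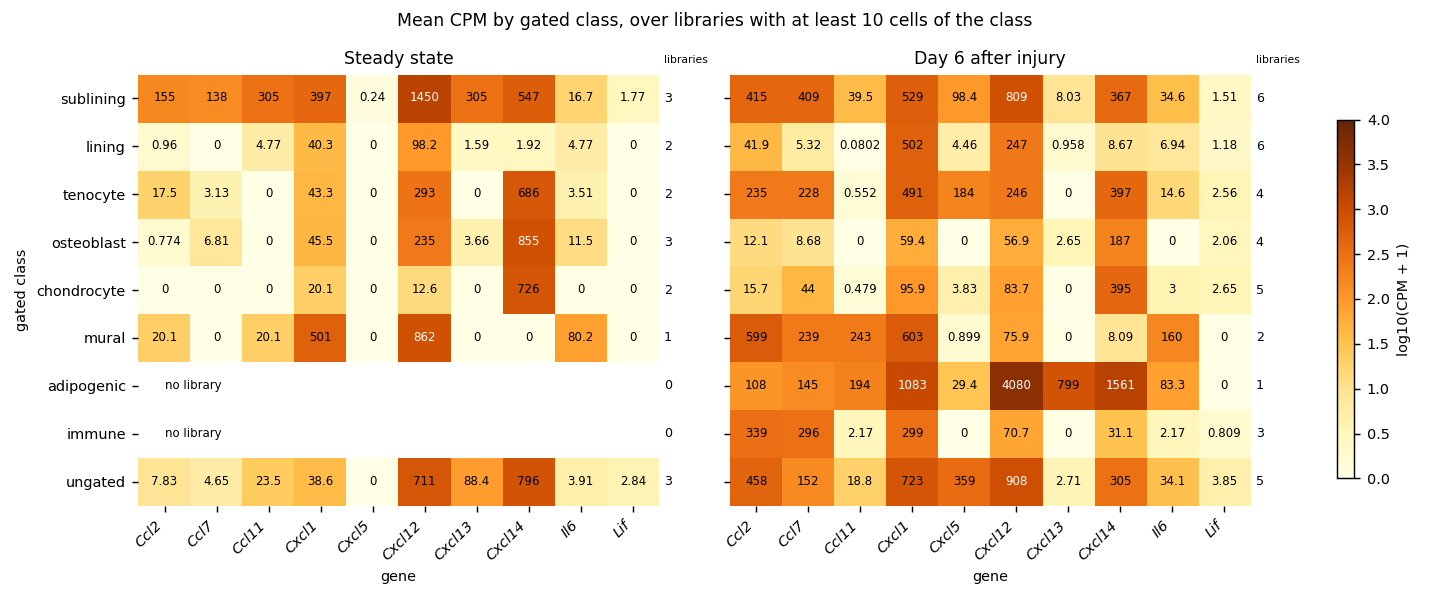
Mean CPM of the 10 genes (columns) in each gated class (rows), in the steady state (left) and on day 6 after injury (right), over the libraries with at least 10 cells of the class, Tom+ and Tom-GFP+ together; colour is log10(CPM + 1), the printed number is the mean, and the number beside each row counts its libraries. Sublining fibroblasts carried *Cxcl13* at a mean of 305 CPM in the steady state and 8.03 CPM after injury, and adipogenic-gated cells of 1 injured library carried it at 799 CPM.

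The loss of *Cxcl13* from sublining fibroblasts was the pattern that chose the gene. *Cxcl13* was at 124 and 119 CPM in the 2 steady-state Tom+ libraries, and at 0.657, 0, 0.278 and 1.32 CPM in the 4 injured-state ones. In Tom-GFP+ cells it was at 672 CPM in the steady-state library and at 14.8 and 31.1 CPM in the injured-state libraries. Every injured library lay below every steady-state library of its lineage. As pooled counts, 589 UMIs in steady-state Tom+ sublining cells stood against 12 after injury, a ratio of CPM of 217 (95% exact interval 123 to 422, counting error only), and 1858 against 165 UMIs in Tom-GFP+ cells gave a ratio of 34.0 (29.0 to 40.1). The fitted log2 fold changes were -7.70 in Tom+ and -4.88 in Tom-GFP+ cells. As the gene was chosen for this loss, the ratios, intervals and fitted changes describe it and are no test of it.

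The share of sublining cells with a *Cxcl13* UMI was 7.47% and 5.88% in the steady-state Tom+ libraries (median 8793 and 8318 UMIs per cell) and 28.3% in the steady-state Tom-GFP+ library (median 8023). After injury it was at most 1.50% in Tom+ libraries, although their cells were deeper, and 4.16% and 7.10% in Tom-GFP+ libraries. In lining fibroblasts, used here as cells without the gene, between 0% and 4.76% of cells had a UMI, each with 1 such cell at most, at median depths of 13969 to 20386 UMIs. The 4.76% was 1 of 21 steady-state cells, and in injured Tom+ libraries the lining share was at most 0.840%, against at most 1.50% in sublining cells. In the 2 injured Tom-GFP+ libraries the level of 14.8 and 31.1 CPM in sublining cells stood against 1.74 and 1.43 CPM in lining cells. Signal came from few cells even in the steady state, since 3 and 2 cells of the Tom+ libraries and 15 of the Tom-GFP+ library held 50% or more of the sublining *Cxcl13* UMIs. After thinning every cell to 3000 UMIs, the share with *Cxcl13* was 5.60%, 3.83% and 24.3% in the steady state, and at most 0.312% and 4.42% in injured Tom+ and Tom-GFP+ libraries.

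*Cxcl13* was not lost from every cell of the injured joint. In Tom+ injured replicate 4, 326 of the 333 *Cxcl13* UMIs (97.9%) were in the 37 adipogenic-gated cells, which made up 5.97% of its cells. A UMI of the gene was in 19 of these 37 cells, and 2 cells held over 50% of the UMIs. In Tom-GFP+ injured replicate 2, 35 of 117 UMIs were in 1 adipogenic-gated cell of 7. Over all kept cells *Cxcl13* was therefore at 42.4 CPM in Tom+ injured replicate 4 and at 0 to 0.732 CPM in the other 3 injured Tom+ libraries, still below the 90.5 and 98.3 CPM of the steady-state Tom+ libraries. In the steady state the adipogenic class was too small to read, with 5 or 6 cells and 0 to 6 *Cxcl13* UMIs in a library. A single ungated cell held 99.2% of the ungated *Cxcl13* UMIs in steady-state Tom+ replicate 2.

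Markers of adipogenic cells moved with *Cxcl13* inside the sublining class. Their summed level in sublining fibroblasts was 178 and 225 CPM in steady-state Tom+ libraries and 452 CPM in the Tom-GFP+ one, and 19.4 to 115 CPM and 130.1 to 132 CPM after injury. After thinning, 53.8%, 66.7% and 68.8% of steady-state sublining cells with *Cxcl13* had a UMI of an adipogenic marker, against 34.7%, 36.5% and 50.6% of cells without it. This was not particular to *Cxcl13*. For *Ccl11* the shares were 56.7%, 70.4% and 70.9% of cells with it against 32.7%, 34.6% and 39.0% of cells without it. Summed universal fibroblast markers such as *Pi16* and *Dpp4* were at 2418 and 2777 CPM in steady-state and 482 to 1059 CPM in injured-state Tom+ libraries. The part of these shifts in the *Cxcl13* difference was not tested.

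In Tom+ sublining fibroblasts, *Ccl7* rose after injury. The fit called 13.4% of 12971 genes at a false discovery rate of 0.05 (5.68% higher and 7.73% lower). Besides *Cxcl13*, *Cxcl5* and *Lif* reached the level of the low-count filter (2.78 CPM) in injured Tom+ libraries and in no steady-state one, so a test of them is not independent of the filter and their values are described only. Of the other 7 genes *Ccl7* was called. Libraries of the 2 states did not overlap for 45.4% of all genes (22.8% higher and 22.5% lower), and for 5 of these 7 genes: *Ccl2* and *Ccl7* were higher in every injured library, and *Ccl11*, *Cxcl12* and *Cxcl14* lower. With 2 steady-state libraries, leaving out either one took the count of all called genes from 1740 to 215 or 257, leaving out Tom+ injured replicates 2 or 3 gave 975 or 915, and leaving out replicate 1 gave 2285.

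Among the Ccr2 ligands, *Ccl7* was at 121 and 98.2 CPM in the steady state and at 243, 381, 621 and 302 CPM after injury. It rose by 1.80 on the log2 scale (SE 0.38, adjusted p = 0.0195, edgeR quasi-likelihood test). That call was lost without steady-state replicate 1 (adjusted p = 0.116) or 2 (0.145) or with a covariate for the gene list's format (0.0599), and the adjusted p ranged from 5.88e-10 to 0.145 over 20 alternatives. *Ccl2* was at 100.3 and 55.7 CPM in the steady state and at 448, 243, 616 and 149.9 CPM after injury, without overlap. Its log2 fold change of 2.22 (SE 0.74) did not pass (adjusted p = 0.0767), and it passed under 6 of 20 alternatives. *Ccl2* was also concentrated in few cells, with 50% or more of its UMIs in 2 cells of each steady-state Tom+ library and in 4 to 16 cells of the injured ones.

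*Ccl11*, the eotaxin gene, went the other way. It was at 97.4 and 63.6 CPM in steady-state Tom+ libraries and at 1.10, 11.0, 28.6 and 24.4 CPM after injury, where replicate 1 was the lowest. The log2 fold change was -2.38 (SE 0.80, adjusted p = 0.0790, edgeR), which did not pass. Without injured replicate 1 it was -1.93 with an adjusted p of 0.00792, and over 20 alternatives the adjusted p ranged from 9.86e-21 to 0.319 with the sign unchanged. The share of cells with a UMI was 15.4% and 10.5% in the steady state and 1.46% to 7.59% after injury.

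Of the Cxcr2 ligands, *Cxcl5* was nearly absent in the steady state and present in every injured library. It had 0 and 1 UMI in the steady-state Tom+ libraries and 994, 386, 296 and 18 UMIs after injury, or 109, 78.4, 82.3 and 4.77 CPM. The pooled ratio of 1694 UMIs to 1 UMI on the CPM scale was 384, with an exact interval of 68.8 to 15173. Counts in the injured libraries were uneven, since replicate 4 had the gene in 2.10% of cells and the other 3 replicates in 13.4% to 16.5%, and 2 to 5 cells held 50% or more of the UMIs. *Cxcl1*, by contrast, was present in both states, at 297 and 199 CPM and then at 627, 449.9, 801 and 226 CPM. Replicate 4 fell between the steady-state libraries, and the log2 fold change of 1.07 (SE 0.77) did not pass (adjusted p = 0.370).

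*Cxcl12* and *Cxcl14* had lower levels in every injured Tom+ library without passing the test. *Cxcl12* was at 2011 and 1663 CPM in the steady state and at 199, 969, 1117 and 948 CPM after injury. Its log2 fold change was -1.21 (SE 0.50, adjusted p = 0.133, edgeR). Replicate 1 was the lowest, and without it the change was -0.87 with an adjusted p of 0.00901, in a range of 2.52e-05 to 0.434 over 20 alternatives. *Cxcl14* was at 588 and 527 CPM and then at 215, 481, 368 and 391 CPM (log2 fold change -0.64, SE 0.37, adjusted p = 0.264).

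The gp130 cytokines were scarce. *Il6* was at 15.9 and 6.11 CPM in steady-state Tom+ sublining cells, and at 11.0, 39.2, 34.5 and 28.6 CPM after injury. Injured replicate 1 lay between the steady-state libraries and the other 3 lay above both. The log2 fold change of 1.36 (SE 0.54) did not pass (adjusted p = 0.117, edgeR), and without replicate 1 it was 1.67 with an adjusted p of 0.00700, in a range of 4.67e-05 to 0.938 over 20 alternatives. Cells with an *Il6* UMI made up 5.81% and 3.10% of the steady-state and 11.7% to 17.9% of the injured-state cells, at unequal depths. *Lif* had 2 and 4 UMIs in the steady-state libraries and 42, 5, 0 and 1 UMIs after injury, too few to give a fold change.

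**Figure D2:**
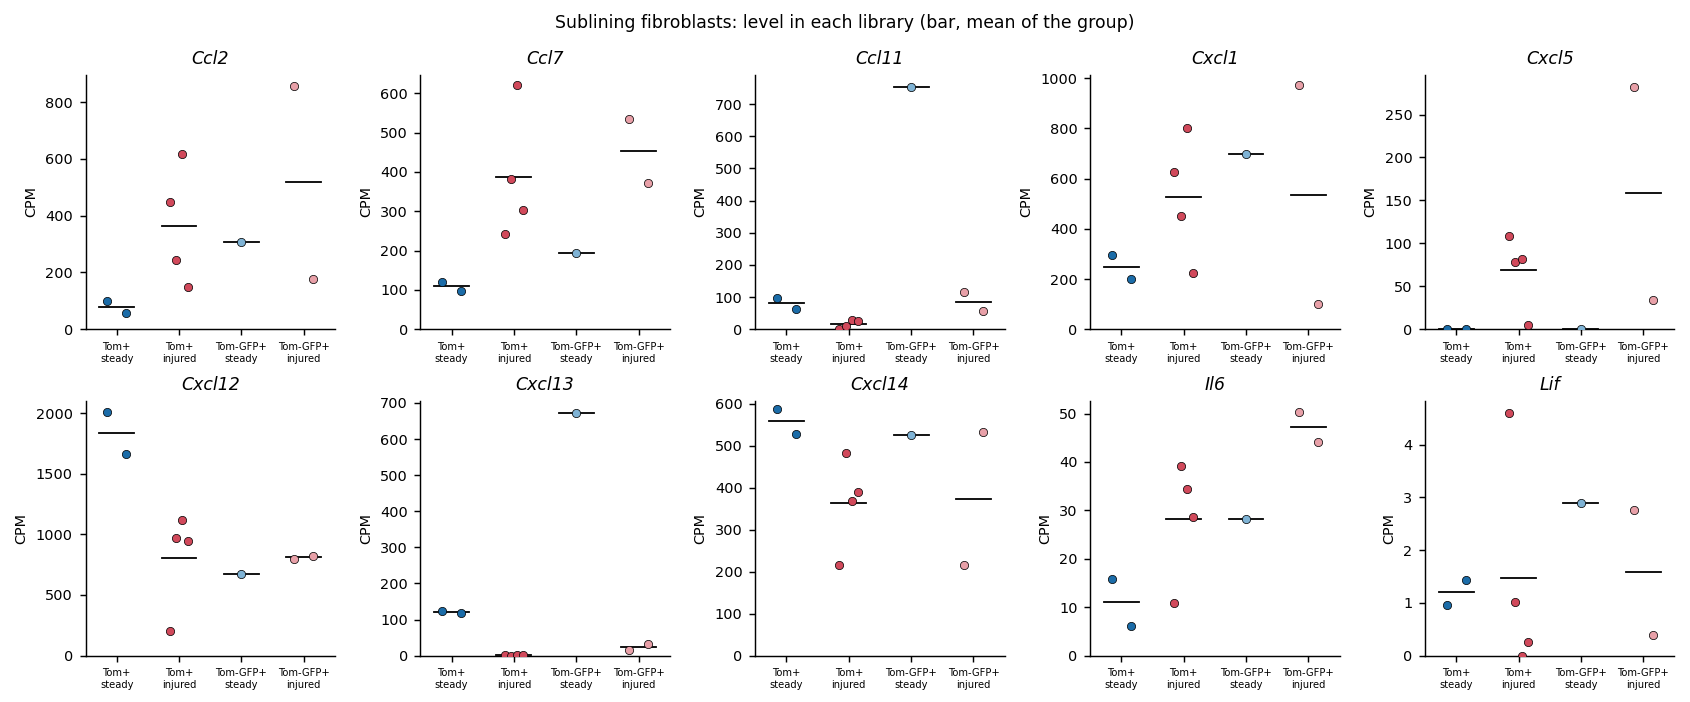
CPM of each of the 10 genes in sublining fibroblasts, 1 point per library, with a bar at the mean of each group (steady-state Tom+ n = 2, injured-state Tom+ n = 4, steady-state Tom-GFP+ n = 1, injured-state Tom-GFP+ n = 2); each axis starts at 0. *Cxcl13* was at 119 to 672 CPM in the 3 steady-state libraries and at 0 to 31.1 CPM in the 6 injured ones, and *Cxcl5* at 0 to 0.362 CPM and 4.77 to 282 CPM.

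Other cells' markers moved in the same libraries. Summed mural markers in Tom+ sublining cells were at 16.4 and 21.9 CPM in the steady state and 119 to 483 CPM after injury, and injury-induced markers (*Lrrc15*, *Adam12*, *Tnc*, *Mdk*) went from 25.5 and 41.9 CPM to 371 to 725 CPM. Cells in the cycling gate were 0% of sublining cells in the steady state, 23.5% in Tom+ injured replicate 1 and 0.546% to 9.35% in the other injured libraries. A list of 18 immediate-early and heat-shock genes, which respond to dissociation, was at 8009 and 8035 CPM in steady-state Tom+ and 3921 to 9979 CPM in injured-state Tom+ sublining cells. The part of each in the differences above was not tested.

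In Tom-GFP+ sublining fibroblasts none of the same 7 genes passed, where the fit called 1.4% of 12971 genes with a single steady-state library. *Ccl7* was at 195 CPM in the steady state and 535 and 371 CPM after injury (log2 fold change 1.24, SE 0.52, adjusted p = 0.218, edgeR). *Ccl11* was at 754 CPM and then at 116 and 56.2 CPM (log2 fold change -3.09, SE 1.08, adjusted p = 0.153, edgeR). With the format covariate the fitted change was -7.28. In Tom-GFP+ libraries format and state coincide, so that covariate rests on Tom+ injured replicate 1, and nothing is read from it. *Cxcl5* had 1 UMI in the steady state and 1636 and 86 UMIs after injury, a pooled ratio of 571 (102 to 22561). *Cxcl5* and *Ccl11* thus differed in the direction seen in Tom+ cells, with all libraries apart, as did *Ccl7*. The libraries of the 2 states were apart for 78.6% of all genes with 2 against 1, and for 4 of these 7 (*Ccl7*, *Ccl11*, *Cxcl12* and *Il6*).

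The other genes were less even in Tom-GFP+ cells. *Ccl2* was at 309 CPM in the steady state and at 857 and 178 CPM after injury, so the injured libraries lay on both sides. *Cxcl1* did the same, at 696 CPM and then 970.4 and 101 CPM, and so did *Cxcl14*, at 525 CPM and then 215 and 532 CPM. Replicate 1 was the high library for *Ccl2*, *Cxcl1* and *Cxcl5*, and the low one for *Cxcl14*. *Cxcl12* was at 675 CPM and then 798 and 825 CPM (log2 fold change 0.29, SE 0.74, adjusted p = 0.857, edgeR). *Il6* was at 28.2 CPM and then 50.4 and 44.0 CPM (0.77, SE 0.67, adjusted p = 0.549, edgeR). With the format covariate the fitted changes were -2.01 for *Cxcl12*, which then passed, and -0.82 for *Il6*. As for *Ccl11*, these rest on Tom+ injured replicate 1, and nothing is read from them.

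**Figure D3:**
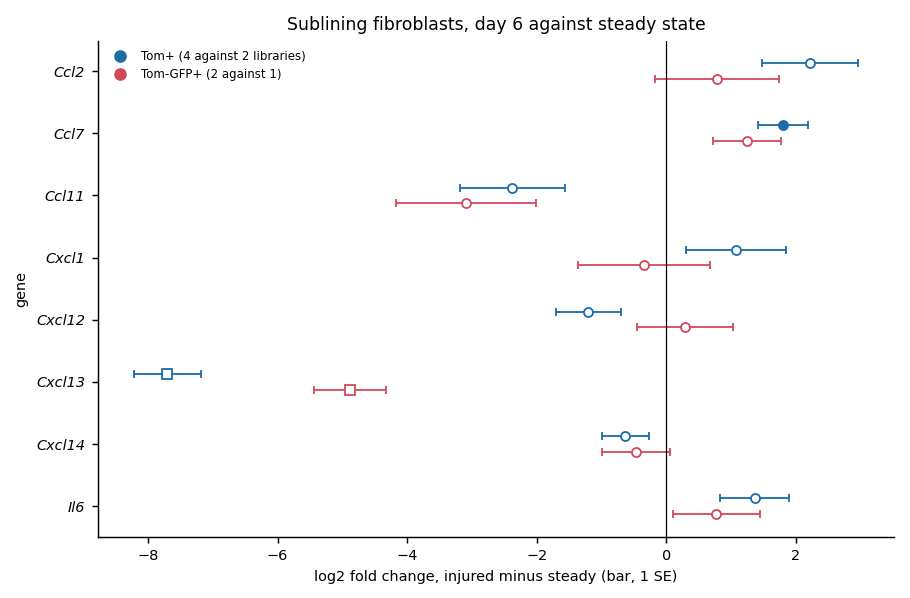
Log2 fold change on day 6 after injury against the steady state in sublining fibroblasts (x axis, with bars of 1 SE). Tom+ cells compare 4 against 2 libraries and Tom-GFP+ cells 2 against 1. Filled points passed a false discovery rate of 0.05 and open circles did not. Squares mark *Cxcl13*, which was not tested and whose bars are no test of it. *Ccl7* in Tom+ cells, at 1.80, is the filled point; *Cxcl5* and *Lif* are not drawn because their steady-state counts were near 0.

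The injury difference was also compared between lineages, and none of the 7 genes passed (edgeR interaction term: 0.0% of 12971 genes called, where 255 had an unadjusted p below 0.05 and DESeq2 called 1). The comparison rests on 1 steady-state Tom-GFP+ library. The interaction for *Cxcl12*, which was lower in all injured Tom+ libraries and higher in both injured Tom-GFP+ libraries than in the steady state, was -1.50 on the log2 scale (SE 0.92, adjusted p = 1.00). That fit holds no format covariate. Under that covariate, which rests on Tom+ injured replicate 1, the fitted change of *Cxcl12* was negative in Tom-GFP+ cells too. The interaction ranged from -1.69 to -1.15 over its alternatives.

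Between lineages within the injured state, none of the 9 genes other than *Cxcl13* passed the test, where 0.0231% of 12971 genes were called. The 2 Tom-GFP+ libraries come from mice that also gave Tom+ libraries, but the labels do not say which, so the fit is unpaired. *Cxcl13* itself was at 0 to 1.32 CPM in the 4 Tom+ and at 14.8 and 31.1 CPM in the 2 Tom-GFP+ libraries, without overlap. In Tom-GFP+ replicate 2, 1 cell held 44.3% of the sublining *Cxcl13* UMIs. Libraries of the lineages were also apart for *Ccl11* (log2 difference -2.45, SE 0.79, adjusted p = 0.621) and *Il6* (-0.75, SE 0.44, adjusted p = 1.00), both lower in Tom+ cells, where 12.6% of all genes had libraries apart. The lineages' steady-state levels, given above, come from 2 libraries and 1, and were not tested.

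Within injured sublining fibroblasts, cells were split by the injury-induced gate of at least 3 of the 4 markers *Lrrc15*, *Adam12*, *Tnc* and *Mdk*. *Cxcl12* was lower inside the gate in all 6 libraries, at 425 ± 152 CPM inside against 998 ± 407 CPM outside (mean ± SD, n = 6). By library the pairs of inside and outside were 168 and 268, 412 and 1317, 389 and 1428, and 466 and 1074 CPM in Tom+ replicates 1 to 4, and 633 and 956, and 484 and 947 CPM in Tom-GFP+ replicates 1 and 2. Of 9590 genes at 5 CPM or more, 9.59% were lower inside the gate in every library and 9.81% higher. *Cxcl5* and *Ccl2* were higher inside the gate in 5 of 6 libraries, *Ccl7*, *Ccl11*, *Cxcl14* and *Il6* lower in 5 of 6, and *Cxcl1* was higher in 3 and lower in 3. These are values without a test.

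Tom+ cells outside the gate were set beside the steady state for *Ccl7*, *Cxcl5*, *Cxcl12* and *Cxcl13*, and were apart in the same directions. In whole sublining sums the states were apart for 45.4% of all genes. That share was not counted outside the gate, so nothing is read from these genes being apart. By the values above, *Cxcl12* outside the gate was below both steady-state libraries in every injured Tom+ library. The part of the gated cells in these differences was not tested. Outside it, *Ccl7* was at 185, 441, 729 and 361 CPM in the injured Tom+ libraries, *Cxcl5* at 68.3, 61.4, 59.1 and 5.68 CPM, and *Cxcl13* at 2.14, 0, 0.397 and 1.00 CPM.

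**Figure D4:**
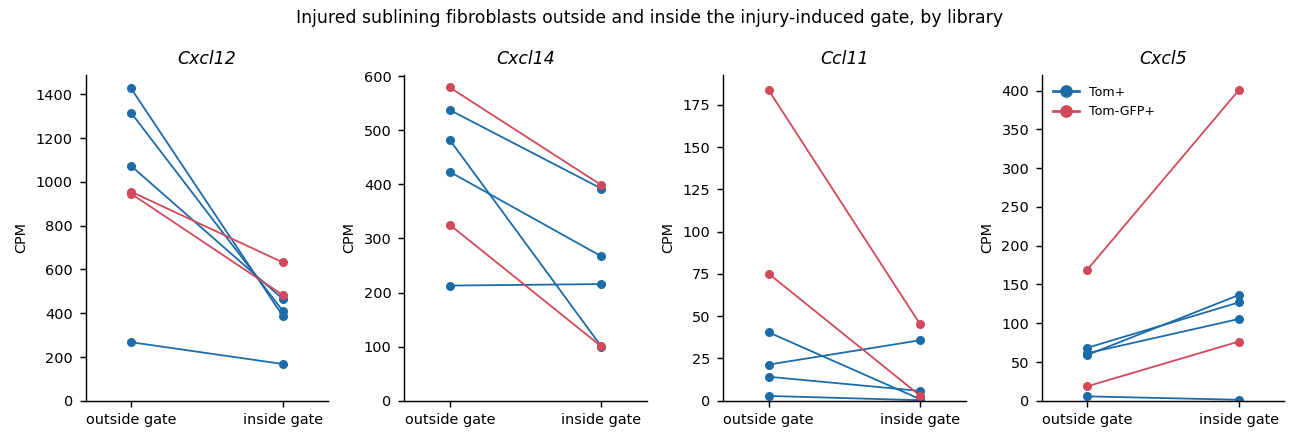
CPM of *Cxcl12*, *Cxcl14*, *Ccl11* and *Cxcl5* in injured sublining fibroblasts outside and inside the injury-induced gate, with 1 line per library (4 Tom+ and 2 Tom-GFP+). All 6 lines fall for *Cxcl12*, and 5 of 6 rise for *Cxcl5*.

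Lining fibroblasts of the same Tom+ libraries had far less of most of these genes than sublining fibroblasts. In 6 libraries with library as a block, 7 of the 10 genes passed the filter on low counts, and all but *Cxcl1* were called lower in the lining, where the fit called 29.7% of 10432 genes (15.6% lower). *Ccl2*, *Ccl7*, *Ccl11*, *Cxcl14* and *Il6* reached the filter's level in 1 to 4 of the 6 lining sums. Their sublining sums reached it in all 6 libraries, or in 5 for *Ccl11*, so they passed mainly through the sublining. Nothing is read from that count, and as a test of these 5 is not independent of the filter, their values are described only. *Ccl7* had a log2 fold change of -6.38 (SE 0.32), at 0 to 9.66 CPM in the lining against 98.2 to 621 CPM in the sublining. *Ccl11* followed with -5.88 (SE 0.44), from 4 UMIs in all lining cells of the 6 libraries, and *Cxcl14* with -5.44 (SE 0.51). *Ccl2* differed by -3.64 (SE 0.37) and *Il6* by -2.57 (SE 0.28). All 5 were lower in the lining in each of the 6 libraries, as were 10.9% of genes.

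*Cxcl12* and *Cxcl1* set the lining apart less. *Cxcl12* was at 108 and 88.3 CPM in the steady-state lining and at 386, 484, 281 and 157 CPM after injury, and its difference from the sublining was -2.26 (SE 0.62, adjusted p = 0.0190, edgeR). In Tom+ injured replicate 1 the lining held more *Cxcl12* than the sublining, 386 against 199 CPM. Its call was lost without steady-state replicate 1 (adjusted p = 0.0512) or injured replicate 3 (0.0515) or 4 (0.0674), and with injured libraries alone the difference was -1.29 (0.0766), in a range of 6.51e-54 to 0.0766 over 13 alternatives. *Cxcl1* did not pass (-0.71, SE 0.38, adjusted p = 0.192). *Cxcl5*, *Cxcl13* and *Lif* were below the filter, at no more than 11.7, 3.18 and 4.88 CPM in the lining.

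*Cxcl1* rose in the lining after injury. It was at 19.1 and 61.4 CPM in 21 and 34 lining cells of the steady-state Tom+ libraries and at 546, 466, 883 and 217 CPM in 119 to 213 cells of the injured ones. The log2 fold change was 3.67 (SE 0.62, adjusted p = 0.0263, edgeR), where the fit called 2.35% of 10408 genes (0.74% higher). The call was lost without steady-state replicate 1 (adjusted p = 0.176) or 2 (0.118), in a range of 3.00e-39 to 0.176 over 13 alternatives. The share of lining cells with a *Cxcl1* UMI was 19.0% and 23.5% in the steady state and 37.9% to 66.3% after injury, and after thinning 0% and 8.82% against 22.0% to 50.3%. Injured Tom-GFP+ lining cells, with no steady-state counterpart, had 686 and 212 CPM.

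*Cxcl12* in the lining did not pass. It had a log2 fold change of 1.82 (SE 0.43, adjusted p = 0.0580, edgeR) and was higher in all 4 injured libraries, and it passed under 5 of 13 alternatives, including the tests without injured replicate 1 (0.0454) or 4 (0.0196), in a range of 4.96e-13 to 0.272. In the sublining of the same libraries it was lower after injury in all 4. *Ccl2* had 0 and 1 UMI in the steady-state lining and 48, 158, 269 and 8 UMIs after injury, a pooled ratio of 37.0 (6.61 to 1465). *Ccl7* had no UMI in the steady-state lining and 62 in the 4 injured libraries, at least 1.58-fold higher against a floor of 3 UMIs over the group. Libraries were apart for *Cxcl1* and *Cxcl12*, both higher, as for 16.5% of all genes. They were also apart for *Ccl2* and *Ccl7*, but these reached the low-count filter's level only in injured libraries, so they are described only. *Cxcl14* and *Il6*, which passed the filter through the injured libraries, overlapped between the states.

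Universal fibroblasts are held to be a reservoir of less specialised cells. They were gated here as sublining cells with at least 5 of the 7 markers *Pi16*, *Dpp4*, *Cd248*, *Sema3c*, *Anxa3*, *Limch1* and *Efhd1*. These cells had less of 5 genes than other sublining fibroblasts. Of the 10 genes, 8 passed the filter over 9 libraries with library as a block, where the fit called 17.8% of 8398 genes (9.1% lower). *Cxcl14* differed most, by -3.70 on the log2 scale (SE 0.31), at 1.82 to 99.3 CPM in universal against 229 to 837 CPM in other sublining cells. It reached the filter's level in 8 of the 9 universal sums and in all 9 of the others, whose side alone passes, so it is described only. *Cxcl12* differed by -1.54 (SE 0.23, adjusted p = 0.000125, edgeR). Both were lower in all 9 libraries, as were 4.51% of genes.

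Smaller differences passed for *Cxcl1* (-0.95, SE 0.20, adjusted p = 0.00259, edgeR), *Ccl7* (-0.76, SE 0.17, adjusted p = 0.00542) and *Il6* (-0.61, SE 0.19, adjusted p = 0.0357). The call for *Il6* was lost under 8 of 15 alternatives, among them the tests without Tom+ steady-state replicate 2 (0.0630), Tom-GFP+ steady-state replicate 1 (0.114), Tom+ injured replicate 1 (0.0550), 2 (0.0824) or 4 (0.0905) and Tom-GFP+ injured replicate 2 (0.0531), in a range of 0.000833 to 0.114. *Cxcl13* did not pass (0.71, SE 0.37, adjusted p = 0.219). In the steady state it was at 111 and 123 CPM in universal and 129 and 118 CPM in other Tom+ sublining cells, and at 698 and 654 CPM in Tom-GFP+ ones, so it was in both parts. After injury the Tom-GFP+ libraries kept 36.7 and 131 CPM in universal cells against 10.4 and 7.30 CPM in the others, from 36 and 64 UMIs. *Ccl2* (-0.70, SE 0.34, adjusted p = 0.189) and *Ccl11* (-0.04, SE 0.28, adjusted p = 0.966) did not pass. *Cxcl5* was at 0 CPM in universal cells of all libraries but Tom-GFP+ injured replicate 1, at 143 CPM.

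Universal cells made up 24.9% to 35.8% of sublining cells in the steady state and 6.32% to 19.7% after injury. Of 18 immediate-early and heat-shock genes, 10 were called lower in universal cells and none higher, where 9.1% of 8398 genes were called lower. *Egr2*, among the 10, passed the low-count filter through the other sublining cells alone. The part of these genes in the differences of *Cxcl1*, *Ccl7* and *Il6* was not tested.

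**Figure D5:**
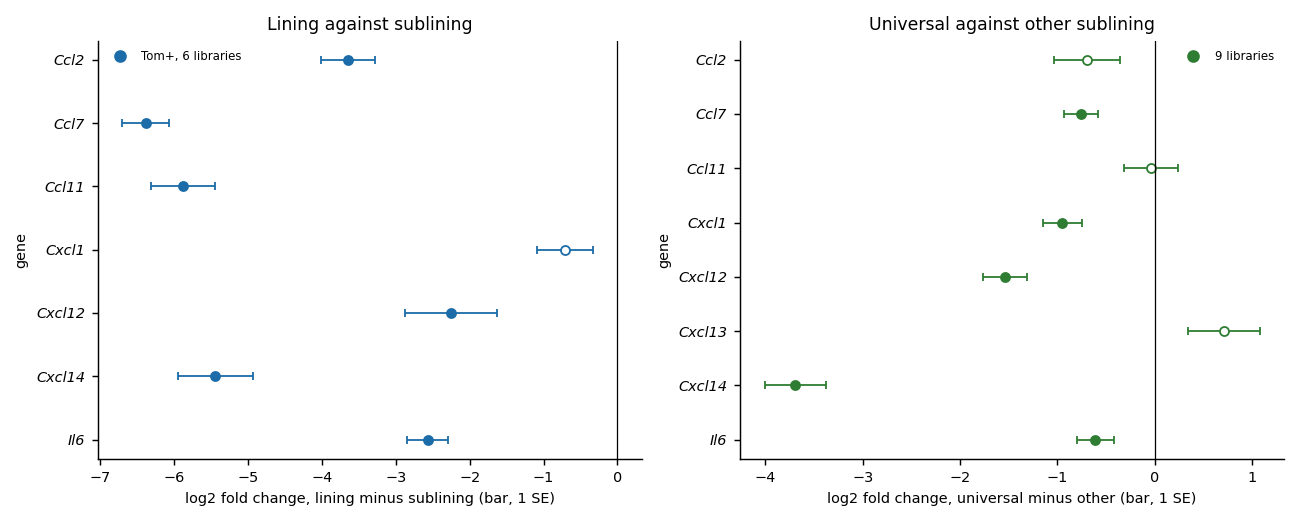
Log2 fold change (x axis; bars, 1 SE) of lining against sublining fibroblasts in 6 Tom+ libraries (left, 7 genes) and of universal against other sublining fibroblasts in 9 libraries (right, 8 genes), with library as a block; filled points passed a false discovery rate of 0.05. All filled points lie below 0, with *Ccl7* at -6.38 on the left and *Cxcl14* at -3.70 on the right. On the left, *Ccl2*, *Ccl7*, *Ccl11*, *Cxcl14* and *Il6* passed the low-count filter mainly through the sublining. On the right, *Cxcl14* passed it through the other sublining cells. Tests of these are not independent of the filter.

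Several of the genes were detected together in the same cells, described here after thinning sublining cells to 3000 UMIs. *Ccl7* was in 37.5% to 79.6% of cells with *Ccl2* and in 8.48% to 23.5% of cells without it, higher in all 9 libraries. *Cxcl12* was in 61.8% to 94.1% of cells with *Cxcl14* against 27.2% to 66.3% of the others. In the steady state, 46.2%, 41.7% and 65.0% of cells with *Cxcl13* had *Ccl11*, against 11.0%, 7.31% and 45.4% of cells without it. Cells of a library share its preparation, and these shares have no test.

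Across 38 sums of a class in a library (at least 20 cells each), the 5 genes of 10330 whose log2(CPM + 1) followed that of *Cxcl13* most closely were *Ces1d* (Pearson r = 0.81), *Cyp2f2* (0.77), *Slc1a5* (0.73), *Dpep1* (0.73) and *Cat* (0.72). For *Cxcl12* they were *Nfia* (0.84), *C1ra* (0.81), *Fmo1* (0.78), *Lysmd2* (0.76) and *Sfrp4* (0.76). For *Il6* they were *Ccl11* (0.76), *Aoc3* (0.75), *Filip1l* (0.73), *Ccl2* (0.72) and *Myc* (0.72), so 2 of the 5 were among the 10 genes described here. Sums of a library share its depth and handling, and no p is given.

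Of 30 other chemokine genes, 13 were tested in Tom+ sublining fibroblasts after injury, 2 were called higher and none lower (5.68% and 7.73% of all genes), with a median log2 fold change of 0.97 against -0.00082 for all 12971 genes. Both reached the low-count filter's level only after injury, so their values are a description. *Cxcl2*, another Cxcr2 ligand, was at 1.62 ± 0.249 CPM (SD, n = 2) in the steady state and 134 ± 108 CPM (n = 4) after injury. *Ccl9* was at 0.180 ± 0.254 CPM and then 7.03 ± 4.18 CPM. In the lining *Ccl9* was at 0 CPM in the steady state and 23.8 ± 6.26 CPM (SD, n = 4) after injury.

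Among 19 genes of the Il6 family, its receptors and their signalling, 15 were tested, 2 rose and 1 fell in Tom+ sublining cells (median 0.04), 3 of 15 against the 13.4% called among all genes. *Clcf1*, a gp130 ligand, rose by 1.32 (SE 0.34, adjusted p = 0.0356, edgeR) and *Pim1*, a kinase induced by Stat3, by 1.18 (SE 0.30, adjusted p = 0.0346). *Il6ra*, the receptor chain specific to Il6, fell by 1.87 (SE 0.32, adjusted p = 0.00956, edgeR) from 18.6 to 5.24 CPM. It was at 17.3 ± 13.4 CPM in universal and 7.87 ± 4.22 CPM in other sublining cells (SD, n = 9). Universal cells were a smaller share of the sublining after injury, and their part in this fall was not tested. In the lining *Socs3*, a feedback inhibitor of gp130 signalling, fell from 743 ± 159.6 CPM (SD, n = 2) to 176 ± 61.2 CPM (n = 4, adjusted p = 0.0152, edgeR). It was the only call of 13 tested, where 2.35% of all genes were called. Of 18 immediate-early and heat-shock genes, 2 were called lower in that fit and none higher: *Egr1* (-1.19, SE 0.24) and *Fosb* (-1.24, SE 0.26). Their part in the *Socs3* difference was not tested.

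Of 16 chemokine receptor genes, 5 were tested and 2 fell in Tom+ sublining cells (median -0.75, where 7.73% of all genes fell). These were *Ackr2* (-2.42, SE 0.51, adjusted p = 0.0191, edgeR) and *Ackr1* (-1.61, SE 0.38, adjusted p = 0.0265, edgeR). Both encode atypical receptors, which scavenge or carry chemokines without guiding cells. *Ackr1* was at 32.7 ± 10.2 CPM in universal and 7.76 ± 6.10 CPM in other sublining cells (SD, n = 9). It passed the filter there through the universal cells, so those values are described only. The part of the smaller share of universal cells after injury in its fall was not tested. *Ackr2* had a higher level in lining than in sublining cells, at 54.9 ± 27.0 against 7.37 ± 7.46 CPM (SD, n = 6). It reached the low-count filter's level in 6 lining and 3 sublining sums and passed through the lining, so it is described only. *Ackr3*, a scavenger of Cxcl12, was higher in the lining as well (0.55, SE 0.12, adjusted p = 0.00577, edgeR). It was also higher in universal cells, which had less *Cxcl12*, than in other sublining cells (1.18, SE 0.09, adjusted p = 5.12e-08, edgeR). Of the 3 receptor genes tested in lining against sublining cells, *Ackr4* alone was called lower in the lining (log2 difference -2.51, SE 0.67). *Ackr4* reached the filter's level in 1 lining and 5 sublining sums, so it is described only.

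Of 24 NF-κB targets and regulators, 23 were tested in Tom+ sublining cells, 4 were called higher and 1 lower (median 0.43), 5 of 23 against 13.4% of all genes. *Vcam1*, an adhesion molecule for leukocytes, rose by 1.35 (SE 0.26, adjusted p = 0.0155, edgeR). *Il1rl1*, the receptor for Il33, went from 0.180 ± 0.254 to 58.3 ± 30.7 CPM and *Tnfsf11*, which encodes RANKL, from 0.421 ± 0.0866 to 20.5 ± 9.35 CPM, and both reached the filter's level only after injury. *Rela* fell by 0.85 (SE 0.21, adjusted p = 0.0336). In Tom-GFP+ cells *Il1rl1* was at 0 CPM in the single steady-state library and 116 ± 65.3 CPM (SD, n = 2) after injury. It was the only call of these lists there, but it again reached the filter's level only after injury, so nothing is read from the call. No gene of these lists was called in the lineage or interaction comparisons.

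In the lining against the sublining, 4 of 9 other chemokines were lower and 1 higher (29.7% of all genes called). *Ccl8*, a chemokine that draws monocytes, was at 0.0529 ± 0.130 against 73.2 ± 46.1 CPM (SD, n = 6) and passed the filter through the sublining alone. *Ccl19* had a log2 difference of -5.33 (SE 0.41) and reached the filter's level in 1 lining and 5 sublining sums. Both are described only, and the symbol *Ccl19* is shared by more than 1 listed gene, so its level is uncertain. In universal against other sublining cells 3 of 6 were lower and none higher, where 17.8% of all genes were called and 9.1% were lower. Among the 3, *Cxcl2* had a log2 difference of -1.12 (SE 0.33) and reached the filter's level in 4 universal and 7 other sums. *Cxcl16* passed the filter through the other sublining cells alone. Both are described only, and nothing is read from the count. Of 21 NF-κB genes tested in the lining, 5 were called higher and 5 lower, where 29.7% of all genes were called. *Traf1* passed the filter through the lining alone and *Icam1* through the sublining alone, so nothing is read from that count. *Il1r1*, the receptor for interleukin 1, had a lower level in the lining, at 12.1 ± 8.03 against 73.1 ± 13.9 CPM. It reached the filter's level in 5 lining and 6 sublining sums and passed through the sublining, so it is described only. *Tnfaip2* was higher in the lining (1.63, SE 0.17, adjusted p = 3.27e-05, edgeR).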

How the data were processed

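Knee cells of 9 libraries (10x 5′ v2 kit) had been aligned by the authors to GRCm38.p6 with Cell Ranger, version not given in the sources used here, and the deposited values are raw UMI counts per gene and cell. A cell was kept if it had 500 or more genes, 1000 or more UMIs and no more than 10% of them mitochondrial, and no doublet caller was run, so leaving out the 5% of cells with the most UMIs was an alternative. Classes needed 3 or 4 detected markers of 6 or 7, or 3 of 4 for the injury-induced class, tried in a fixed order. Universal cells needed 5 of 7 markers within the sublining class. The numbers needed were set after seeing the files. Counts were summed per class and library and fitted across all genes with edgeR 4.0.16 in R 4.3.3 (filterByExpr, TMM, quasi-likelihood test; called at a Benjamini-Hochberg adjusted p of 0.05), every p printed being two-sided. Sublining fits of injury, lineage and their interaction held all 9 libraries and 4 groups, which share steady-state controls and 1 estimate of the spread. Fits within a library had library as a block. SEs were computed from the F statistic. Fitted fold changes are not given where a group held 3 or fewer UMIs; the ratio of pooled CPM with its exact interval, or a bound against 3 UMIs where the group held none, stands in their place. DESeq2 1.42.0, other filters, gates and scalings, and each library left out were alternatives. In simulated data, the fits recovered 27.1%, 6.59%, 1.14% and 16.5% of log2 changes of 1 in the Tom+ sublining, Tom-GFP+ sublining, interaction and lining injury comparisons. For log2 changes of 2 the shares were 85.6%, 58.4%, 28.4% and 68.9%. The lineage, lining against sublining and universal fits recovered 30.3%, 76.0% and 92.2% of log2 changes of 1. Every simulated gene had the same dispersion of 0.05, so these shares do not hold for genes that vary more between libraries. A gene that did not pass may therefore still differ. Libraries of a group come from separate mice. Intervals (Clopper-Pearson or exact ratio, 95%) and floors cover counting error only. Across 5161 barcodes depth was 2863401 to 15027334 UMIs in kept cells, and no column was left unused.

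The members, gene lists and gates were chosen with earlier results of these data known. Values are described for every member; in other lists, the 3 called genes with the greatest fold in each direction could be named, and the 5 nearest genes by likeness. For symbols listed more than once (3 in the lists), the first identifier was used.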

Additional observations from a re-analysis of the deposited data

Results flagged for a closer look

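In lining fibroblasts, *Ccl11* of Tom+ injured replicate 4 stood apart from the other 3 injured Tom+ libraries. It was at 0.481 CPM, from 1 UMI in 124 cells, and the others had no UMI. It was the single value past Dixon's 95% limit among 20 groups of 4 injured Tom+ libraries. With no UMI in the other 3, any UMI in the fourth passes that limit, so nothing is read from it.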

How the results depend on the processing

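Counts of called genes depended on which libraries entered. In Tom+ sublining cells the injury count of 1740 ranged from 215 (without Tom+ steady replicate 1) to 2285 (without Tom+ injured replicate 1), with 257, 975 and 915 without Tom+ steady replicate 2 and Tom+ injured replicates 2 and 3. The Tom-GFP+ count of 182 ranged from 6 (without Tom-GFP+ injured replicate 1) to 1180 (without Tom+ injured replicate 1, which shares the estimate of the spread), and was 51, 57, 65, 80 and 44 without Tom+ steady replicates 1 and 2, Tom+ injured replicates 2 and 3 and Tom-GFP+ injured replicate 2. The lineage count of 3 ranged from 0 (without either Tom+ steady replicate) to 11 (without Tom+ injured replicate 1), with 1 and 6 without Tom+ injured replicate 3 and Tom-GFP+ injured replicate 2. In the lining the count of 245 ranged from 21 (without Tom+ steady replicate 1) to 545 (without Tom+ injured replicate 1), with 23, 87, 54 and 87 without Tom+ steady replicate 2 and Tom+ injured replicates 2, 3 and 4. DESeq2 called 541, 50, 1 and 461 genes for the Tom-GFP+, lineage, interaction and lining comparisons. Without the filter on low counts edgeR called 3098, 1753, 422, 72 and 1211 for the Tom+, Tom-GFP+, lineage, interaction and lining comparisons, over more genes. All fibroblasts together gave 283 and 14 for Tom-GFP+ and lineage. A covariate for the gene list's format gave 798 and 12, and rests by construction on Tom+ injured replicate 1. Gating after thinning gave 697 for universal cells, from fewer cells. The cause of the other shifts was not tested.

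Of the members' values, 808 kept direction and side of the threshold, 39 came to pass, 27 no longer passed, 35 changed sign and 9 with no test moved by more than the spread. Values that changed sign were counted as such whether or not they passed. Sign changes were of small or uneven differences that had not passed in the fits given above. In Tom-GFP+ cells, *Ccl2* ranged from -0.78 to 1.55, *Cxcl1* from -2.76 to 0.56 and *Cxcl14* from -1.21 to 0.033 on leaving out libraries. With the format covariate, which rests on a Tom+ library, *Cxcl1* was 0.050, *Cxcl12* -2.01 and *Il6* -0.82 there. Of these, *Cxcl12* passed the threshold with its sign changed, and nothing is read from it. Between lineages the ranges were -1.22 to 1.06 for *Ccl2*, -0.54 to 0.080 for *Ccl7*, -0.87 to 2.40 for *Cxcl1*, -2.03 to 1.05 for *Cxcl5*, -0.19 to 0.35 for *Cxcl12* and -0.53 to 0.77 for *Cxcl14*. *Cxcl1* was also 0.014 without the low-count filter and 0.19 without injury-induced cells, *Cxcl12* -0.039 with stricter cell filters and -0.23 in all fibroblasts, and *Cxcl14* 0.16 with the format covariate. The *Cxcl14* interaction ranged from -0.67 to 0.63, and was 0.016 with the format covariate. In universal cells *Ccl11* ranged from -0.36 to 0.18 and was 0.18 by DESeq2, and *Cxcl13* was -0.39 after thinning. *Ccl7* in Tom+ sublining cells no longer passed with the format covariate (0.0599), under which *Ccl11* and *Cxcl12* there came to pass at -6.14 and -3.19.

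Replicate numbers did not establish pairs: steady and injured mice differ, and same-numbered libraries' deviations correlated at 0.058 and 0.120 between states and 0.296 and 0.115 between lineages, below the 0.388 of Tom+ injured replicate 4 with Tom-GFP+ injured replicate 2. With the number as a block, the Tom+, lineage and lining counts were 1816, 3 and 262. *Ccl2* and *Ccl11* in Tom+ sublining cells and *Cxcl12* in the lining then came to pass (adjusted p = 0.0117, 0.0228 and 0.00230, edgeR). *Cxcl1* and *Cxcl12* between lineages changed sign to 0.53 and -0.70. Depth limits *Lif*, *Cxcl5* and lining cells most, with 55 lining cells in the steady-state Tom+ libraries.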
